A study of Mus musculus with 6 samples.

Results

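Hedgehog signalling genes were compared between 2 regions of the mouse embryonic lung at embryonic day E11.5, the branching and the non-branching one. The genes were chosen by symbol: the ligand gene Shh, the receptor gene Ptch1, the signal transducer gene Smo, the transcription factor genes Gli1, Gli2 and Gli3, the ligand-binding inhibitor gene Hhip, the co-receptor gene Gas1 and the Gli inhibitor gene Sufu. Of these 9 genes, 7 were read by 8 probe sets that the platform annotation assigns to that symbol alone, out of 8251 genes with such a probe set. Ptch1 had 2 probe sets and the other 6 genes had 1 each. Hhip and Sufu were not analysed here. The branching region was dissected from the lungs of both sides, and the non-branching region consisted of the main bronchi and part of the trachea. There were 3 arrays per region, each with the total RNA of 1 sample. The labels name no genotype, strain or treatment and do not say whether the samples came from separate embryos, so p-values cover no more than the spread between these arrays, which may be technical. Both regions hold epithelium and mesenchyme. In such bulk samples, fewer cells of a type and less RNA per cell cannot be told apart.

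In the developing lung, Shh is made by the epithelium and received by the surrounding mesenchyme. The ligand binds Ptch1, a receptor that keeps Smo inactive while no ligand is bound. Active Smo lets Gli2 and Gli3 act as activators rather than repressors, Sufu holds the Gli proteins back, and Gas1 presents ligand to Ptch1. Transcription of Ptch1, Gli1 and Hhip is raised by the signal, so the receptor and the inhibitor feed back on it, while in the mouse neural tube and somites transcription of Gas1 is lowered by it. Loss of Shh in the mouse leaves the lung with little branching.

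Values are intensities on a linear scale in arbitrary units, and the number of arrays limits their precision. The arrays had medians of 212 to 229. All 8 probe sets lay above the background level of 147, the 95th percentile of 114 values from 19 controls that match bacterial or yeast transcripts, on every array. The lowest single value, of the dimmer Ptch1 probe set on a non-branching array, was 1.69 times that level. These controls had a median of 78.8 on non-branching replicate 2, while the remaining arrays had 19.8 to 40.7. Epithelial markers were read in both regions. Of 19 tested, 3 averaged at or below background in branching and 2 in non-branching. The surfactant protein gene Sftpc averaged 757 ± 93.9 in branching and 227 ± 133 in non-branching, and on non-branching replicate 2 it was below background at 74.5. Its log2 difference of 1.99 ± 0.49, the highest of the epithelial markers, did not pass (limma adjusted p = 0.0807). With 1 array left out the difference ran from 1.31 to 2.37 and passed in 1 of the 6 omissions. Sftpc was named after its value was seen. The endodermal transcription factor gene Foxa2 averaged 548 ± 26.5 in branching and 841 ± 32.7 in non-branching (mean ± SD, n = 3 each).

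Of the 8 Hedgehog probe sets, 1 was higher in branching, 1 lower, and 6 did not pass. The one that rose was the dimmer of the 2 probe sets of Ptch1 (104030_at), and the one that fell was that of Gas1 (94813_at). The threshold was an adjusted p under 0.05 in limma, a linear model fitted on all 9316 probe sets that passed a filter on dim signals. Over all probe sets tested, 0.902% were called higher and 1.13% lower, or 2.03% in all. In 5 of the 8 Hedgehog probe sets every branching array lay above every non-branching array, against 9.79% of all probe sets tested. These 5 were both probe sets of Ptch1 and those of Smo, Gli1 and Gli3. Every branching array lay below every non-branching array for Gas1, against 11.0% of all probe sets, and the regions overlapped for Shh and Gli2. All 8 probe sets passed the filter on dim signals.

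**Figure D1:**
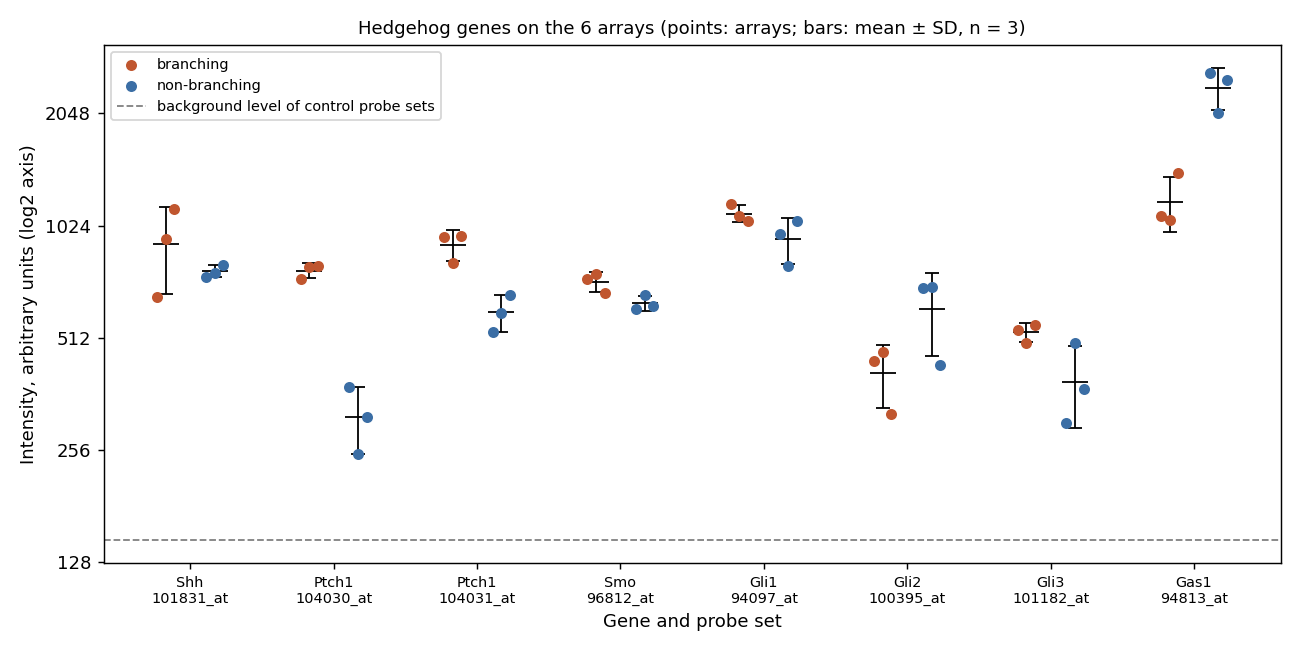
Intensity of each Hedgehog probe set (log2 axis) on the 3 branching arrays, left of each pair, and the 3 non-branching arrays, with mean ± SD (n = 3). The regions stand furthest apart for the dimmer Ptch1 probe set, 104030_at, and for Gas1, and the dashed line is the background level of 147.

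Shh, the ligand gene, had an intensity of 658, 942 and 1135 on the branching arrays and of 747, 766 and 803 on the non-branching arrays. The branching arrays spread on both sides of the non-branching ones, with the lowest and the highest of the 6 values both in branching. The mean was 912 ± 239.7 in branching and 772 ± 28.4 in non-branching (mean ± SD, n = 3 each). The log2 difference was 0.21 ± 0.20 (SE) and missed the threshold (limma adjusted p = 0.716). The 95% interval of the difference ran from -0.25 to 0.66 on the log2 scale, so the fold of branching over non-branching lay between 0.841 and 1.58. Without branching replicate 3 the log2 difference was 0.03, and without branching replicate 1 it was 0.42.

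Since Shh is an epithelial gene, its signal was also set against 19 epithelial markers on the same arrays. Their mean log2 signal was 8.71 in branching and 8.63 in non-branching. Relative to that mean, Shh differed by 0.13 on the log2 scale (p = 0.7 in a two-sided exact permutation test, which cannot go below 0.1 with 3 arrays against 3). The sign of this value turned with the median in place of the mean of the markers (-0.11) and without branching replicate 3 (-0.02). Of the 19 epithelial genes 0 were called by limma, 5 had an unadjusted p under 0.05 and 12 had a positive difference, with a median of 0.10 against -0.01 over all 6798 genes tested. Their summed intensity ran from 11105 to 11879 in branching and from 10700 to 12072 in non-branching, so the 2 regions overlapped in it. The epithelial genes with the smallest p were Cldn6, a tight junction claudin gene, with a log2 difference of 0.62 ± 0.14 (limma adjusted p = 0.0647), and Foxa2, with -0.62 ± 0.15 (adjusted p = 0.0751).

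Ptch1, the receptor gene, was read by 2 probe sets. The dimmer one, 104030_at, had intensities of 734, 794 and 797 in branching, against 377, 249 and 314 in non-branching. Each branching value was far above every non-branching value, and the branching arrays lay close together. The mean was 775 ± 35.3 in branching and 313 ± 63.96 in non-branching (mean ± SD, n = 3 each). The signal rose by 1.33 ± 0.21 on the log2 scale (SE, limma adjusted p = 0.0138), which is 2.51-fold with a 95% interval from 1.81 to 3.47.

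The brighter probe set of Ptch1, 104031_at, had intensities of 955, 812 and 962 in branching, against 529, 598 and 668 in non-branching. Here too the regions did not overlap, but they lay closer. The mean was 910 ± 84.5 in branching and 599 ± 69.5 in non-branching (mean ± SD, n = 3 each), and the log2 difference of 0.61 ± 0.16 did not pass (SE, limma adjusted p = 0.110). Its 95% interval on the fold ran from 1.18 to 1.96. The 2 probe sets thus had the same direction and differed in size. On each array, the log2 signal of the dimmer minus that of the brighter probe set was -0.38, -0.03 and -0.27 in branching and -0.49, -1.27 and -1.09 in non-branching, which differed by 0.72 between the regions (two-sided exact permutation p = 0.1, the smallest possible). That comparison was chosen after the values were seen. With the 2 probe sets averaged on the log2 scale before the fit, an alternative also added after seeing the data, the Ptch1 signal rose by 0.97 ± 0.16 (SE, limma adjusted p = 0.0184).

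The call of the dimmer probe set depended on the arrays. It was lost without branching replicate 2 (limma adjusted p = 0.0560), without branching replicate 3 (adjusted p = 0.0720) and without non-branching replicate 3 (adjusted p = 0.0573), and with no variance trend in the fit (adjusted p = 0.0892). Its log2 difference stayed between 1.17 and 1.47 over the 6 omissions. Non-branching replicate 2, the array with the high control signal, had the lowest value of this probe set, and without it the difference was 1.17 and passed (adjusted p = 0.0411). The brighter probe set passed in 0 of the 6 omissions, with differences from 0.52 to 0.69.

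Gas1, the co-receptor gene, had intensities of 1083, 1060 and 1416 in branching, against 2637, 2055 and 2515 in non-branching. The highest branching value was well below the lowest non-branching value. The mean was 1186 ± 199 in branching and 2402 ± 307 in non-branching (mean ± SD, n = 3 each). The signal fell by 1.02 on the log2 scale (SE 0.15, limma adjusted p = 0.0106), so it was 2.03-fold lower in branching, with a 95% interval from 1.60 to 2.58. Gas1 and the dimmer Ptch1 probe set stood at places 67 and 76 of the 9316 probe sets ordered by p. Gas1 passed in 5 of the 6 omissions of 1 array, and without non-branching replicate 3 it did not (adjusted p = 0.0623). It did not pass without the variance trend (adjusted p = 0.128) or when dim probe sets were kept (adjusted p = 0.0557).

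**Figure D2:**
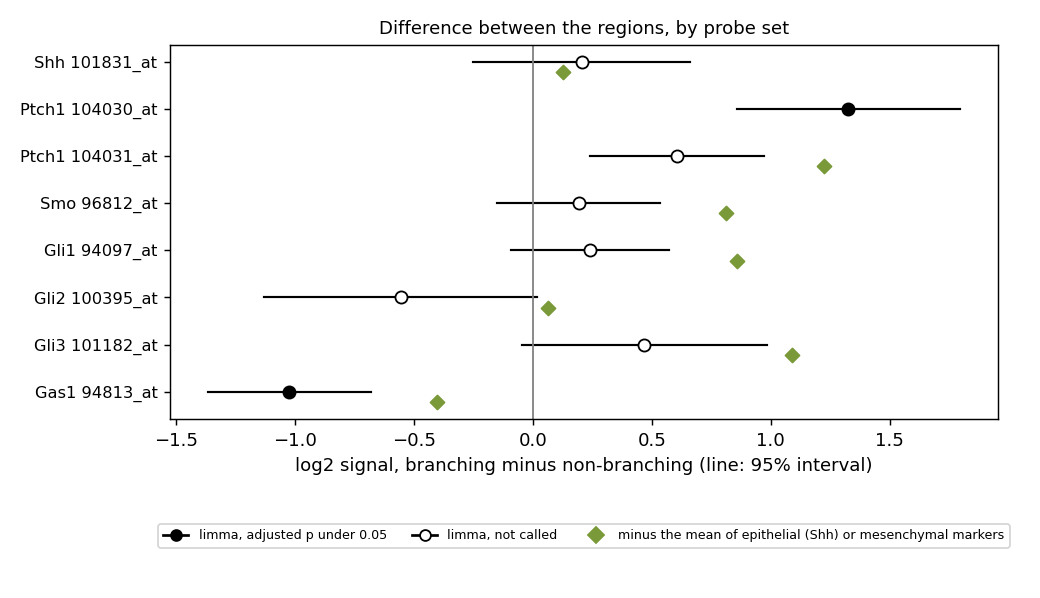
Log2 difference of each Hedgehog probe set, branching minus non-branching, with its 95% interval (circles; filled where the limma adjusted p was under 0.05), and the same difference after the mean of epithelial (Shh) or mesenchymal markers is taken off (diamonds). Filled circles are the dimmer Ptch1 probe set at 1.33 and Gas1 at -1.02.

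The promoters of these 2 genes are shown because they are the members with a called probe set, and their upstream sequences differ. The sequences are RefSeq promoters of build GRCm38.p6, the 250 bases before each gene's start on the minus strand of chromosome 13, at chr13:63565736-63565985 for Ptch1 and chr13:60177536-60177785 for Gas1. Capitals mark the GC box GGGCGG or its complement CCGCCC, searched on both strands.
Ptch1: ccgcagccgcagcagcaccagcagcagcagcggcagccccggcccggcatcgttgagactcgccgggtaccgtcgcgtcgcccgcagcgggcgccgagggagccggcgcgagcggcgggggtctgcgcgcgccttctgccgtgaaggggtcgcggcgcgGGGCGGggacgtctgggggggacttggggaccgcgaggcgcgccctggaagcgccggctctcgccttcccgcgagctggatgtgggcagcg
Gas1: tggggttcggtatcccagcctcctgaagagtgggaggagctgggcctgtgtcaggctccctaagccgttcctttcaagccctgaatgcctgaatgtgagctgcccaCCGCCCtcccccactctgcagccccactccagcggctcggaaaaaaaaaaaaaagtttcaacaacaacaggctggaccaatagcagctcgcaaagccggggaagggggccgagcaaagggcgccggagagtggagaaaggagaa
Each window holds 1 GC box, as do 32.7% of 32851 promoter windows of the same length with at least 1. The Ptch1 window has 78.4% G and C with 41 CpG pairs, and the Gas1 window 58.8% with 10, against a median of 52.4% G and C over all windows. The Gli consensus TGGGTGGTC, searched on both strands, was found in neither window, nor in those of Smo, Gli2 and Gli3, the other members with a window in the table, and 0.225% of all windows hold it. Its inner letters GGGTGG, which overlap the longer motif, were found upstream of Smo, Gli2 and Gli3 and in 28.1% of all windows. Such a match is a description of letters and does not mark a binding site.

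Smo, the membrane protein that passes the signal on, had intensities of 738, 761 and 675 in branching, against 612, 665 and 624 in non-branching. All branching values were above all non-branching values, by a small margin. The means were 725 ± 44.4 in branching and 634 ± 28.05 in non-branching (mean ± SD, n = 3 each), and the log2 difference of 0.19 ± 0.15 did not pass (SE, limma adjusted p = 0.626). The 95% interval ran from a fold of 0.902 to 1.45.

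Among the Gli genes, none passed. Gli1, a transcriptional activator that is itself a read-out of the signal, had intensities of 1170, 1083 and 1056 in branching, against 972, 797 and 1051 in non-branching. The regions did not overlap, but the lowest branching and the highest non-branching array were nearly equal. The means were 1103 ± 59.2 in branching and 939.9 ± 130.2 in non-branching (mean ± SD, n = 3 each), and the log2 difference was 0.24 ± 0.15 (SE, limma adjusted p = 0.514). Its 95% interval on the fold, 0.938 to 1.49, did not reach the 1.81 that was the lower bound for the dimmer Ptch1 probe set. It overlapped the interval of the brighter one, and the difference between Gli1 and Ptch1 was not tested.

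Gli2, the main activator, had intensities of 444, 468 and 320.4 in branching, against 696, 700.1 and 434 in non-branching. In both regions replicate 3 was the lowest, and the regions overlapped. The means were 411 ± 79.2 in branching and 610.0 ± 153 in non-branching (mean ± SD, n = 3 each), and the log2 difference of -0.56 ± 0.25 did not pass (SE, limma adjusted p = 0.359). Without non-branching replicate 3 the log2 difference was -0.78.

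Gli3, the main repressor, had intensities of 539, 496 and 555 in branching, against 302, 495.2 and 374 in non-branching. Branching replicate 2 and non-branching replicate 2 were almost equal at 495.7 and 495.2, so the regions were separated by less than 1 unit. The means were 529.7 ± 30.6 in branching and 390.3 ± 97.6 in non-branching (mean ± SD, n = 3 each), and the log2 difference of 0.47 ± 0.23 did not pass (SE, limma adjusted p = 0.387). Gli2 and Gli3 thus had differences of opposite sign, neither of which passed, and the difference between them was not tested.

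Receptors and Gli factors act mostly in the mesenchyme, so their signals were also set against 18 mesenchymal markers on the same arrays. Of these markers 5 fell and 0 rose, with a median of -0.72 on the log2 scale against -0.01 over all genes tested, where 68 of 6798 genes rose and 90 fell. The markers that fell were the collagen genes Col1a1, Col1a2 and Col3a1 and the transcription factor genes Tcf21 and Twist1. Of the 18 markers 15 had a negative and 3 a positive log2 difference. The positive ones were Foxf1 (1.42), Tbx2 (0.28) and Tbx3 (0.18), and none of them passed. For Foxf1 and Tbx2 every branching array was above every non-branching array. Col3a1, Foxf1, Tbx2 and Tbx3 were named after their values were seen. Another Col1a1 probe set had -1.07 (limma adjusted p = 0.00122) and another Col1a2 one -0.10 (adjusted p = 0.782). For Col3a1, 2 others had -0.37 and 0.09 (adjusted p = 0.562 and 0.921). Twist1, with a branching mean at background, passed in 2 of the 6 omissions. With the probe sets of a gene averaged, the marker median was -0.55. The summed intensity of the 18 markers was 23114 to 23639 in branching and 37399 to 39135 in non-branching, and 4 of them averaged at or below background in branching and 1 in non-branching. Their mean log2 signal was 9.10 in branching and 9.72 in non-branching.

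Relative to that mean, the brighter probe set of Ptch1 was 0.72 ± 0.14 in branching and -0.50 ± 0.13 in non-branching (mean ± SD, n = 3 each), a log2 difference of 1.23. The relative difference was 1.09 for Gli3, 0.86 for Gli1 and 0.81 for Smo, and in these 4 genes no branching array overlapped a non-branching array. Each had a two-sided exact permutation p = 0.1, the smallest that the design allows, so none could pass 0.05. The relative difference was 0.06 for Gli2 (exact permutation p = 0.9) and -0.40 for Gas1 (exact permutation p = 0.2), and both overlapped. These values depended on how the markers were summarized. With the median of the markers in place of their mean, the difference was 1.09 for Ptch1, 0.95 for Gli3, 0.72 for Gli1 and 0.67 for Smo. For Gli2 and Gas1 it was -0.075 and -0.54. All 6 values share the same markers, 5 of which were themselves called lower. The marker mean differed by -0.62 between the regions, and this enters each value. Before it was taken off, Gli1 differed by 0.24 and Smo by 0.19, and the 4 genes did not overlap either. What part of a difference follows from the share of mesenchyme in a sample was not tested.

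Of 24 further genes of Hedgehog production, reception and transduction that were tested, 1 fell, 0 rose and 23 did not pass. Over all 6798 genes tested, 68 rose and 90 fell. The median log2 difference was 0.01 for the 24 genes against -0.01 over all genes, and 4 of the 24 had an unadjusted limma p under 0.05. The pathway gene that fell was Gpc3, which encodes a cell surface glypican that binds Hedgehog ligand. Its mean intensity was 2564 ± 141 in branching and 4398 ± 527 in non-branching (mean ± SD, n = 3 each), a log2 difference of -0.77 ± 0.11 (SE, limma adjusted p = 0.00851). Without branching replicate 3 it did not pass (adjusted p = 0.0508). The co-receptor gene Cdon was near background, with a mean of 153 ± 52.0 in branching and 101 ± 74.2 in non-branching, and did not pass (limma adjusted p = 0.613). The other ligand genes, Ihh and Dhh, had log2 differences of -0.37 ± 0.34 (adjusted p = 0.695) and 0.11 ± 0.19 (adjusted p = 0.837), the second on a probe set of a less specific design, while another Dhh probe set had -0.10. The kinase genes that mark Gli proteins for processing did not pass either, among them Prkacb with -0.30 (adjusted p = 0.296) and Csnk1a1 with 0.28 (adjusted p = 0.384), where another probe set had -0.17. Cdon, Ihh, Dhh, Prkacb and Csnk1a1 were chosen for their roles after their values were seen.

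Vertebrate Hedgehog signals pass through the primary cilium. Of 13 tested genes of the cilium and its transport, 0 were called by limma, with 1 at an unadjusted p under 0.05, and the list had a median log2 difference of -0.14. The smallest p belonged to Ift172, a transport complex gene, with means of 747 ± 112 in branching and 994.0 ± 73.1 in non-branching (mean ± SD, n = 3 each) and a log2 difference of -0.42 ± 0.16 (limma adjusted p = 0.264). Next came the centriolar satellite gene Pcm1 with 0.39 ± 0.26 (adjusted p = 0.560).

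Genes reported to respond to Hedgehog in one tissue or another differed in either direction. In this list of 28 tested genes 2 rose, 3 fell and 23 missed the threshold, while over all 6798 genes tested 68 rose and 90 fell. Of the 28, 10 had an unadjusted limma p under 0.05. The median log2 difference of the list was -0.07, and 14 were positive and 14 negative. Snai2, a transcription factor gene of mesenchymal cells, had intensities averaging 3873 ± 240.2 in branching and 1950 ± 78.7 in non-branching (mean ± SD, n = 3 each), and rose by 0.99 ± 0.10 on the log2 scale (SE, limma adjusted p = 0.00142). It passed with any 1 array left out. Mycn, a growth-promoting transcription factor gene, averaged 1086 ± 62.3 in branching and 602 ± 60.6 in non-branching and rose by 0.85 ± 0.15 (adjusted p = 0.0210), but passed in 1 of the 6 omissions, with the highest adjusted p, 0.0885, without non-branching replicate 3.

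The 3 responsive genes that fell were Wnt5a, Foxc2 and Igf2. The ligand gene Wnt5a, at background in branching, was at least 1.57-fold lower there (limma adjusted p = 0.0175). It passed in 2 of the 4 omissions in which it was tested, and its highest adjusted p, 0.0553, came without branching replicate 3. The forkhead gene Foxc2, with a branching mean at background and 1 branching array above it, was at least 3.81-fold lower (adjusted p = 0.0211). Foxc2 passed in 1 of the 6 omissions, with the highest adjusted p, 0.0996, without non-branching replicate 2, and did not pass when dim probe sets were kept (adjusted p = 0.0968). Its other probe set did not pass at -2.36 (adjusted p = 0.129). The growth factor gene Igf2 fell by 0.64 (adjusted p = 0.0101). It passed in 3 of the 6 omissions, with the highest adjusted p, 0.0653, without non-branching replicate 3, and did not pass when dim probe sets were kept (adjusted p = 0.0798). Igf2 was named after its value was seen, as was Foxf1. Foxf1, a forkhead gene of the lung mesenchyme and a Hedgehog target there, averaged 572 ± 34.5 in branching and 243.5 ± 139 in non-branching (mean ± SD, n = 3 each). Every branching array was above every non-branching array, yet the log2 difference of 1.42 ± 0.42 did not pass (limma adjusted p = 0.145). Without the variance trend Wnt5a passed, and Snai2 (limma adjusted p = 0.0853), Mycn (0.119), Foxc2 (0.128), Igf2 (0.202) and the pathway gene Gpc3 (0.149) did not. Foxf1, Pdgfra, Pdgfrb, Tbx2 and Tbx3 are in both this list and the mesenchymal list.

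**Figure D3:**
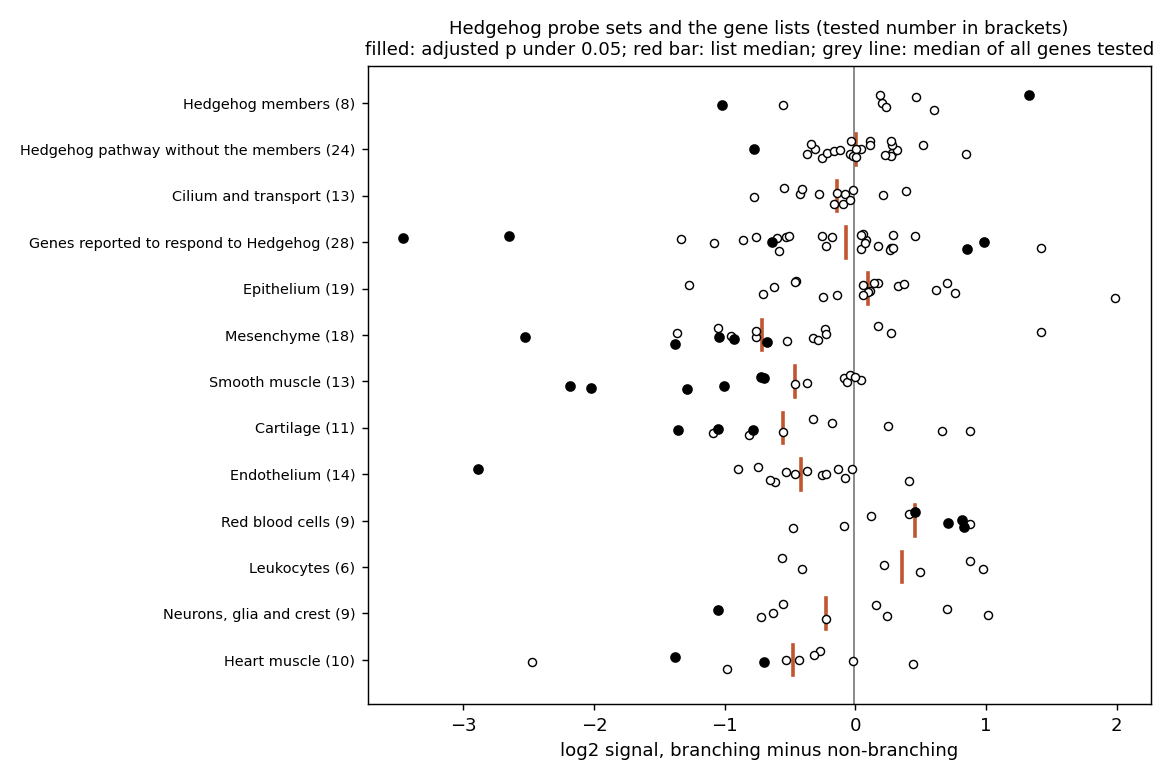
Log2 difference, branching minus non-branching, of the 8 Hedgehog probe sets and of each tested gene of 12 lists (1 probe set per gene; filled where the limma adjusted p was under 0.05), with list medians as red bars. The median is 0.01 for the further pathway genes and -0.72 for the mesenchymal markers.

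Markers of other cell types were counted on the same arrays. For comparison, 68 of all 6798 genes tested rose and 90 fell. Of 13 smooth muscle genes tested, 6 fell and 0 rose, with a summed intensity of 11639 to 12144 in branching and 18302 to 19659 in non-branching. Of 11 cartilage genes 3 fell and 0 rose (summed intensity 4182 to 4700 in branching, 7182 to 7657 in non-branching), and of 14 endothelial genes 1 fell and 0 rose (5872 to 7043 in branching, 7954 to 8335 in non-branching). Of 10 heart muscle genes 2 fell and 0 rose (3265 to 3400 in branching, 5136 to 5944 in non-branching), and of 9 neuronal, glial and crest genes 1 fell and 0 rose (4644 to 5113 in branching, 5957 to 6218 in non-branching). Of 9 red blood cell genes 4 rose and 0 fell, with 140115 to 155246 in branching and 90888 to 98390 in non-branching. Several of these calls depended on single arrays. In heart muscle Tnni1 passed in 0 and Actc1 in 4 of the 6 omissions. In cartilage Col9a2 and Col9a3 passed in 1 of 6 each and Matn4 in 6. In red blood cells Hbb-b2 and Hbb-y passed in 1 of 6 each, and Hba-a1 and Hba-x in 6. Actc1 and Hbb-y were read by probe sets of a less specific design. Of 6 leukocyte genes 0 were called by limma and 0 had an unadjusted p under 0.05, with 2001 to 2218 in branching and 1872 to 1970 in non-branching. The medians of these lists were -0.46 for smooth muscle, -0.55 for cartilage, -0.42 for endothelium, -0.48 for heart muscle, -0.23 for neuronal genes, 0.45 for red blood cells and 0.36 for leukocytes. With the probe sets of a gene averaged, the median was -0.22 for endothelium, -0.55 for neuronal genes, 0.70 for red blood cells and 0.06 for leukocytes. The part of these cell types in the differences of Ptch1 and Gas1 was not tested.

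The genes most like the brightest probe set of Ptch1 over the 6 arrays, by the Pearson correlation of log2 signals among 6797 other genes, were Cldn6 (0.992), Ctr9 (0.989), Tnfrsf21 (0.986), Eftud2 (0.983) and Cdk4 (0.982). None of these 5 was called by limma. For Shh they were Pip4p2 (0.990), Exosc4 (0.990), Hsp90aa1 (0.984), Eed (0.975) and Ptp4a2 (0.973). After the mean of each region was taken off, the genes most like Ptch1 were Gpsm3 (0.996), Aff4 (0.993), Ubap1 (0.989), Mterf3 (0.986) and Ctr9 (0.986), and those most like Shh were Rrm2 (0.997), Zfp93 (0.996), Pan2 (0.995), Msn (0.995) and Pip4p2 (0.993). Ctr9 and Pip4p2 were named by both measures. With 6 arrays and so many genes such values are descriptions: 30 genes exceeded 0.95 with Ptch1 and 6 with Shh before the region means were taken off, and 39 and 56 after.

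**Figure D4:**
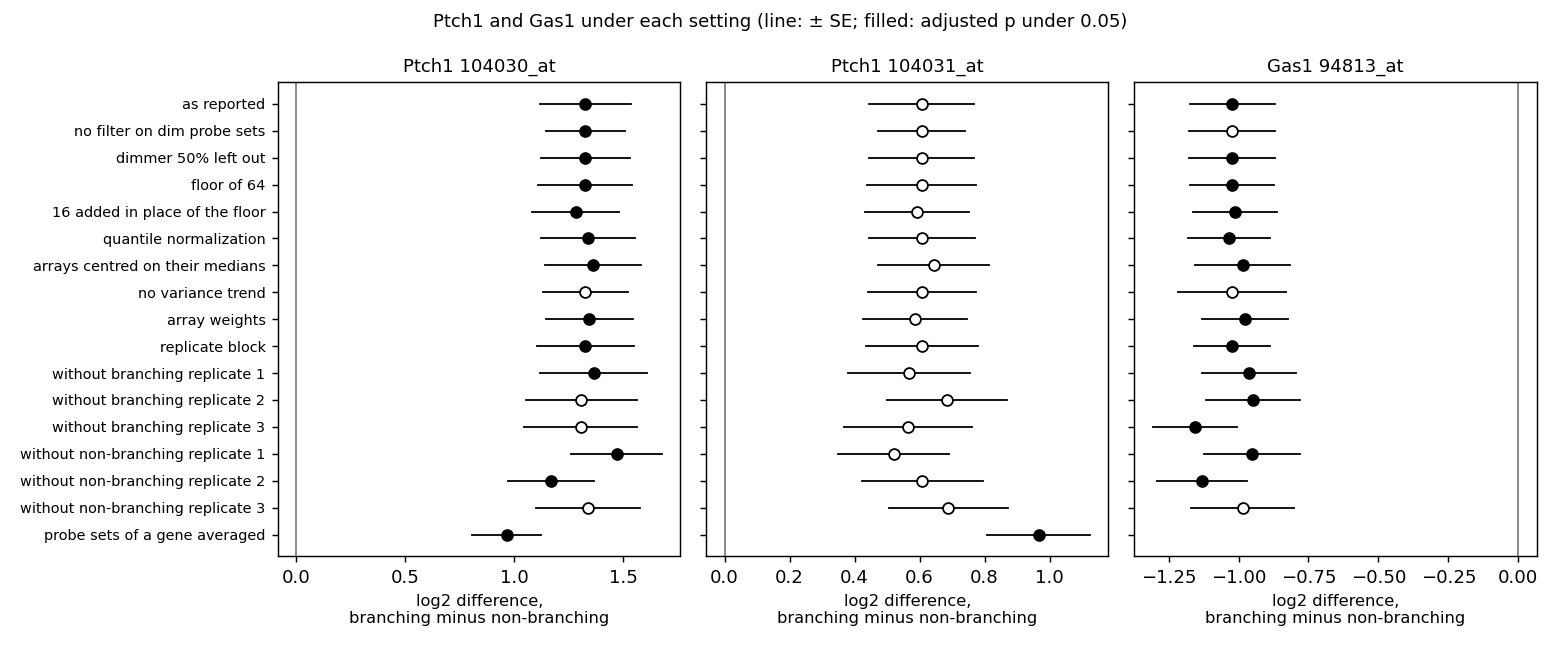
Log2 difference, branching minus non-branching, of both Ptch1 probe sets and of Gas1 under each setting of the analysis, with ± SE (filled where the limma adjusted p was under 0.05). The lowest row of both Ptch1 panels is the same value, the average of the 2 probe sets. The direction is the same in every row, and the brighter probe set, 104031_at, is filled in none of its own rows.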

How the data were processed

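The deposited table held 1 intensity per probe set and array on a linear scale. The steps by which the authors made it were not given in the sources used here. As read from the values, the deposited intensity of each array had a mean of about 500 without its lowest and highest 2% (499.7 to 499.9), a common level that was kept. Of 12488 probe sets, 66 controls were left out. Signals were raised to a floor of 16 and converted to log2. This floor lies below the background of 147, so the differences of dim genes depend on it. Wnt5a had -3.46 with the floor of 16 and -1.85 with a floor of 64. The dimmest 25% by mean were dropped, and limma 3.58.1 under R 4.3.3 tested the remaining 9316 (2 groups, eBayes with a variance trend, two-sided, Benjamini-Hochberg adjustment over all probe sets). The fit was also run on simulated data with independent noise in each probe set and no effect of an array or of cell composition. Such data cannot show how the calls depend on single arrays. A gene was represented in lists by its brightest probe set. Where the mean of 1 region was at or below 147, the change is a lower bound, with arrays of that region raised to 147.

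The members and lists were chosen with earlier results of these data known. Named genes were all members, up to 4 called genes per list with the largest change, or else the 2 with the smallest p, and the 5 genes most like Shh and Ptch1; genes outside this rule are said to be named after their values were seen. For lists of other cell types, counts and sums are given, with names for the calls of heart muscle, cartilage and red blood cells. Gene names come from the platform annotation, and RefSeq changed 0 symbols. Alternatives were other filters, floors and normalizations, no variance trend, array weights, replicate numbers as a block and omission of each array.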

Additional observations from a re-analysis of the deposited data

How the results depend on the processing

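Over all settings tried, the differences of the 8 Hedgehog probe sets kept their direction, and those of Shh, Smo, Gli1, Gli2 and Gli3 passed in none. On its own, the dimmer Ptch1 probe set was called in 11 of 15 alternatives, the brighter one in 0 of 15 and Gas1 in 12 of 15. The adjusted p of the dimmer one was 0.0892 without the variance trend (log2 difference 1.33), and its differences ran from 1.17 to 1.47 over the omissions. Gas1 was -1.02 with dim probe sets kept (adjusted p = 0.0557) and without the variance trend (adjusted p = 0.128), and -1.16 to -0.95 over the omissions. The average of the 2 Ptch1 probe sets passed at 0.97, an alternative chosen after seeing the data. The causes of these changes were not tested. Probe sets called higher, 84 as reported, were 38 with no filter, 5 without the trend, 44 with the replicate block, 164 at an adjusted p under 0.10 and 16 to 69 over the omissions. Those called lower, 105 as reported, were 62 with no filter, 17 without the trend, 195 at 0.10 and 38 to 98 over the omissions. Relative to markers, Shh was -0.11 with the median of the markers and -0.019 without branching replicate 3 and up to 0.37 over the omissions. Gli2 relative to markers was -0.073 without the dimmer 50% of them, -0.075 with their median, and -0.21 to 0.23 over the omissions. With the dimmer 50% left out, the list median was -0.59 for neuronal genes, 0.07 for Hedgehog-responsive genes, -0.26 for endothelium and 0.22 for leukocytes, and with probe sets averaged it was 0.06 for epithelium. The replicate block changed no call of a Hedgehog probe set: the dimmer Ptch1 probe set had an adjusted p of 0.0458 and Gas1 of 0.0237. Wnt5a (adjusted p = 0.0688) and Mycn (adjusted p = 0.0684) did not pass with the block. Same-numbered arrays of the 2 regions did not deviate together (correlations of -0.0023, 0.013 and -0.015). With so few arrays these values cannot show whether the numbers pair the samples, and the labels do not say. For Gli2 and Gli3 the limma p before adjustment was 0.0560 and 0.0693, so neither was under 0.05.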
